A study of Mus musculus with 6 samples.

Results

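The genes described here encode the proteins that dock, prime and fuse synaptic vesicles, together with related members of the same families. They were chosen by gene symbol alone: numbered synaptotagmins, syntaxins, syntaxin binding proteins and VAMPs, the synapsins Syn1 to Syn3, complexins, SV2 proteins, Rab3 proteins, Unc13 and Rims proteins, Snap25 and Syp. The rule found 70 of the 35415 genes in the deposited count and FPKM tables. FPKM gives fragments per kilobase of gene length, scaled to the depth of the library. Of the 70 genes, 67 passed the filter on low counts and were tested among 17255 genes.

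The lateral septum, a forebrain region made up mainly of GABAergic neurons, was taken from wild-type (WT) female C57BL/6 mice, bought at about 8 weeks of age. After acclimation they were kept for 12 weeks on control chow or on the same chow with olanzapine, an antipsychotic drug, at 50 mg per kg of feed. Each group had 3 libraries and each library held pooled tissue of 3 mice, so the spread between libraries is a spread between pools. The olanzapine libraries also carry the short name MetS in the labels. The question was which genes of the lateral septum differed after olanzapine.

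Vesicle release rests on a small set of interlocking proteins. Synaptobrevin (Vamp1, Vamp2) on the vesicle zips together with plasma membrane syntaxins such as Stx1a and with Snap25 to form the SNARE complex. Munc13 proteins (Unc13 genes) prepare this complex, complexins clamp and assist it, and synaptotagmins such as Syt1 sense the calcium that triggers fusion. Rab3 proteins and their Rims partners bring vesicles to the active zone, synapsins hold the reserve of vesicles, and SV2 proteins and synaptophysin (Syp) sit in the vesicle membrane. Other syntaxins and VAMPs serve fusion steps elsewhere in the cell.

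Total counts ran from 38208153 to 39868872 per pool. The release genes took between 1.29% and 1.67% of all counts, with the highest share in olanzapine pool 1. Olanzapine pool 1 stood apart before any comparison was made. All 10 of 10 listed markers of cortical glutamatergic neurons were highest there, with a summed level of 659 FPKM against 162 to 235 FPKM in the other 5 pools. Slc17a7, the vesicular glutamate transporter typical of cortex, was at 221 FPKM in that pool and at 3.64 to 18.7 FPKM in the others. The 15 general neuronal markers were close in all pools (1811 to 2060 FPKM summed), and 0 of 15 were called by edgeR or DESeq2 or had an unadjusted p under 0.05. The lateral septum markers were all detected, summed to 334 to 388 FPKM, and had a median log2 fold change of -0.38 with 0 of 12 called by edgeR, 2 of 12 by DESeq2, and 4 lower at an unadjusted edgeR p under 0.05. Values without olanzapine pool 1 are given beside the results it moves most.

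Promoter windows are printed for 3 genes on which the results turn: Rab3c and Stx3, which passed the test, and Stx1a, which was high in 1 pool. Each window holds the 250 bases before the RefSeq start, read 5′ to 3′ on the gene's strand, from RefSeq on GRCm38.p6. For Rab3c the RefSeq start lies downstream of the outermost GENCODE start, so its whole window falls inside the gene as GENCODE places it, in none of its exons. Capitals mark matches on either strand to the searched motifs, which were the GC box core GGGCGG, the CAAT box CCAAT, the TATA box TATAAA and the cyclic AMP response element TGACGTCA.
Rab3c, chr13:110280207-110280456, minus strand: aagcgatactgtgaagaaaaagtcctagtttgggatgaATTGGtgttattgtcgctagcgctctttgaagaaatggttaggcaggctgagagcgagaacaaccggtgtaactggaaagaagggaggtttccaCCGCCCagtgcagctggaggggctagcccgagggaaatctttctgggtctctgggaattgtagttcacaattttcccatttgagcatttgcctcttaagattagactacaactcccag
Stx3, chr19:11819404-11819653, minus strand: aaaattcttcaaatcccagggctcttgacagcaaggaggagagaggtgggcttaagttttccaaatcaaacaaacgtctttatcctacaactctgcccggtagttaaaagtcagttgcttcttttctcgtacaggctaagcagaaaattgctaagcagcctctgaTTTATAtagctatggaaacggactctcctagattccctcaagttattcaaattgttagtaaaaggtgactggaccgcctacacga
Stx1a, chr5:135023232-135023481, plus strand: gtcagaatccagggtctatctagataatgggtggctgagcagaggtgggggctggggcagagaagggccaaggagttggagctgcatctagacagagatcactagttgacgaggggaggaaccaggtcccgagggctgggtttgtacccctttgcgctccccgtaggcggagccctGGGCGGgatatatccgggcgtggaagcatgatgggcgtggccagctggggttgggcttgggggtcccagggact
Windows were found for 54 of the 70 genes, some with several starts, which gave 70 windows among 32851 for all genes. The GC box core was in 61.4% of the release gene windows and in 32.7% of all windows. The TATA box letters were in 7.14% against 12.4%, those of the CAAT box in 31.4% against 33.8%, and those of the cyclic AMP response element in 2.86% against 1.55%. These matches describe letters only. The base composition of the 3 printed windows differed, with 47.6% G and C for Rab3c, 42% for Stx3 and 62% for Stx1a.

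Levels of the release genes spanned the range from absent to among the most abundant transcripts. Over the 6 pools, 12 of the 70 genes had a mean of at least 100 FPKM, 40 at least 10 FPKM and 61 at least 1 FPKM. Snap25 was the highest with a mean of 525 FPKM, followed by Vamp2 with 434 FPKM and Syp with 423 FPKM. Their ranges overlapped, since Snap25 ran from 446 to 790.2 FPKM, Vamp2 from 403 to 476 FPKM and Syp from 383 to 499 FPKM. Rab3a, Cplx1, Syt1 and Cplx2 were also high, with means of 299.6, 219.5, 205 and 162 FPKM, and Syt1 overlapped Cplx1. The high genes are thus the partners of the SNARE complex and the main vesicle proteins, with Rab3a as the leading Rab3 gene.

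**Figure D1:**
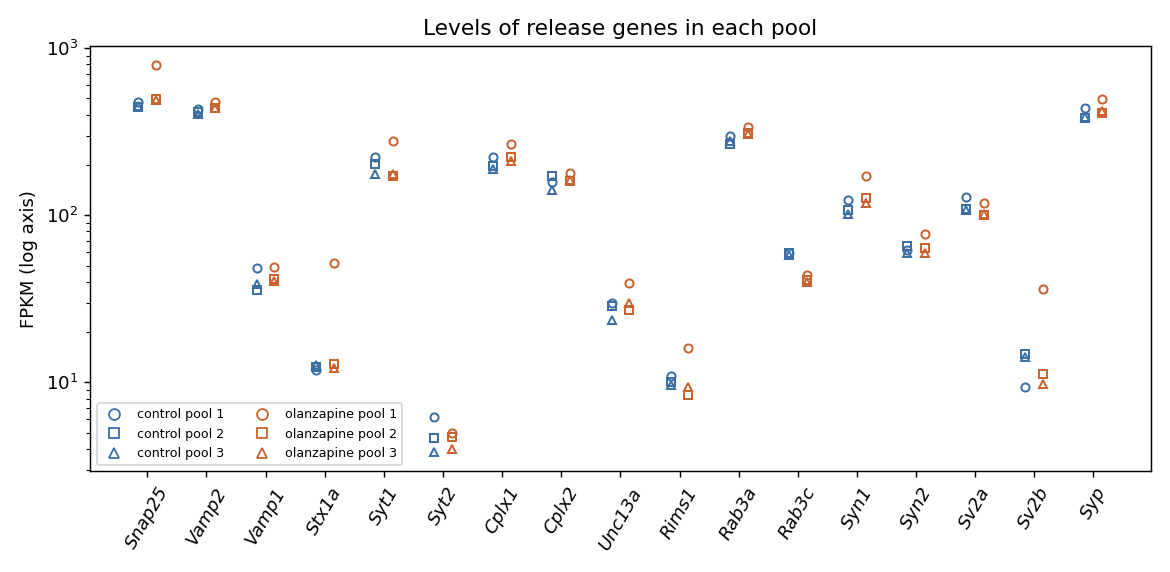
FPKM of 17 release genes in each of the 6 pools on a log axis, with 1 point per pool (control pools in blue, olanzapine pools in orange, the shape giving the pool number). Snap25, Vamp2 and Syp lie highest, the Rab3c points of the 2 diets are separate, and the circle of olanzapine pool 1 lies far above the other 5 points for Stx1a and Sv2b.

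At the low end, Stx19 had 0 counts in every pool, which allows up to 3 counts per pool. Cplx4, a complexin of retina, had 0 to 5 counts and Syt8 0 to 4 counts per pool, and these 3 genes were the ones not tested. FPKM depends on the gene length used. The lengths implied by the deposited tables were within 1.5 times the exonic length of GENCODE (release M21) for 41 of 69 genes, with ratios from 0.31 to 6.38. The order of levels between genes therefore holds for the authors' lengths. Of the 70 genes, 18 share exonic bases with another annotated gene, among them Syp with 875 bases of Gm14703.

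The test between the diets called 2 release genes, a share close to that of all genes tested. Rab3c, a vesicle-bound Rab3 GTPase, fell, and Stx3, a plasma membrane syntaxin, rose, while Snap25, Vamp1, Vamp2, Stx1a, the complexins and all 16 tested synaptotagmins did not pass the test. The 2 genes called of 67 make up 2.99%, beside 2.32% of all 17255 genes tested (edgeR quasi-likelihood test, Benjamini-Hochberg adjusted p under 0.05 over all genes). Of the 67 genes, 1 was called higher (1.49%), with a background of 1.83%, and 1 of 67 lower (1.49%), with a background of 0.493%. With the study's further limit of a fold change above 2 or below 0.5, 0 of 67 release genes and 1.01% of all genes were called. At an unadjusted p under 0.05 there were 9 of 67 (13.4%), 6 higher and 3 lower, against 17.6% of all genes, of which 9.19% were higher and 8.4% lower. DESeq2 called 4 of 67 against 5.73% of all genes.

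The median log2 fold change was 0.06 over the 67 genes and 0.00 over all genes, and it was -0.05 for the release genes without olanzapine pool 1. It was above 0 for 40 of 67 genes (59.7%), against 50.7% of all genes. Of the 67 genes, 48 had a fitted log2 fold change within 0.25 of 0 and 57 within 0.5 of 0. The median standard error was 0.13. The groups did not overlap for 9 of 67 genes (13.4%), against 24.3% of all genes. Higher in olanzapine were 6 genes (Stx3, Stxbp2, Stx2, Stx5a, Stx16, Stx4a; background 13.3%) and lower were 3 (Rab3c, Syt10, Syt4; background 11%). By FPKM there were 10 higher (Snap25, Vamp2, Rab3a and Syt5 added) and 4 lower (Syt11 added), against 15.5% and 9.32% of all genes. Without olanzapine pool 1 there were 7 higher and 12 lower, against 19.5% and 18.2% of all genes.

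**Figure D2:**
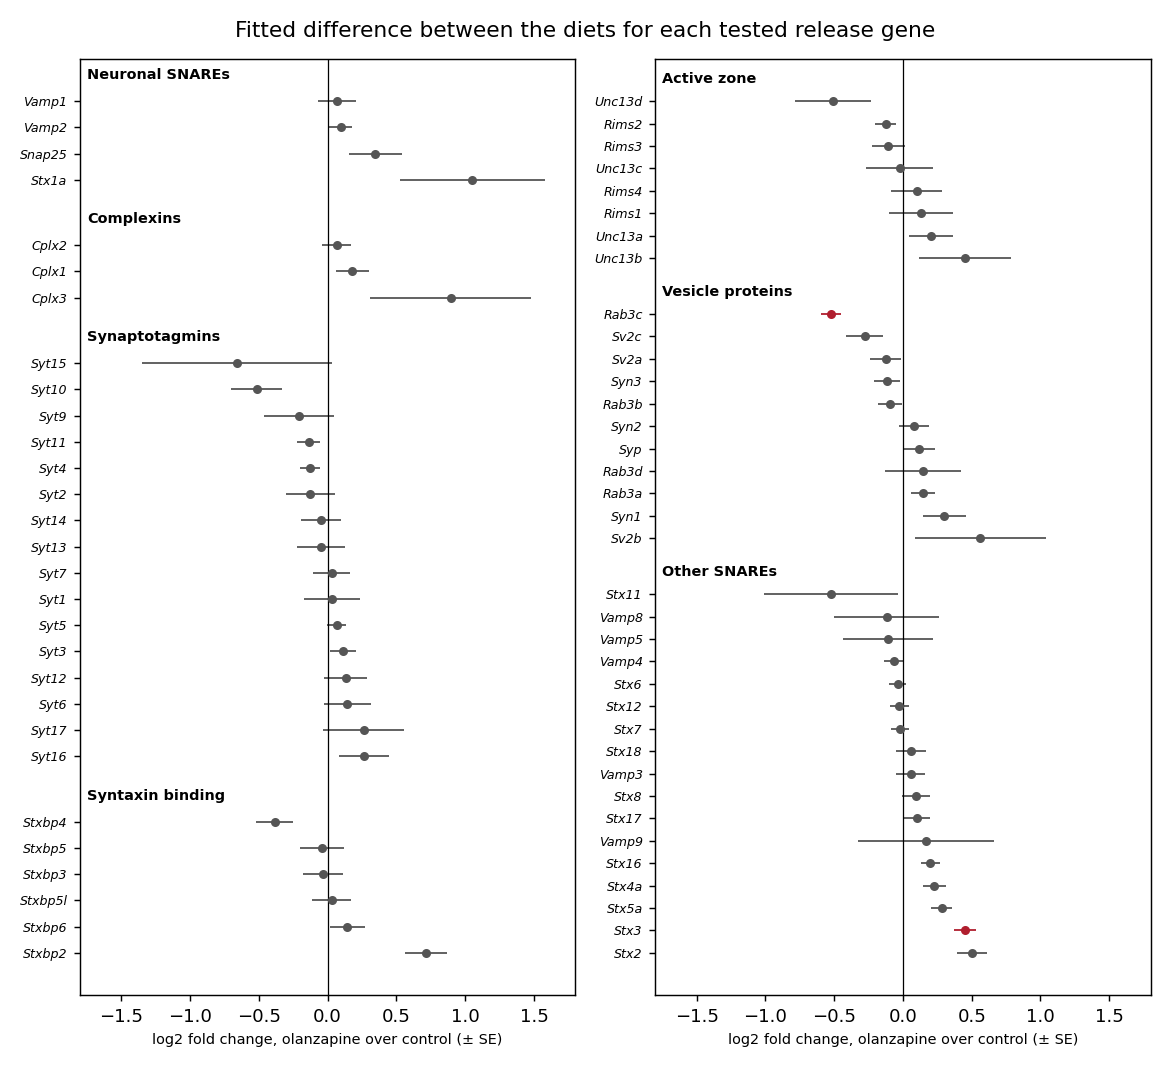
Fitted log2 fold change of olanzapine over control with its standard error for 65 tested release genes, grouped by role (horizontal axis, log2 scale; red, adjusted p under 0.05; grey, not called). Rab3c at -0.52 and Stx3 at 0.45 are the 2 red points, and Stx1a at 1.05 has the largest rise with a standard error of 0.53.

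Rab3c was the clearest difference. It lies at chr13:110054187-110280996 on the minus strand of GRCm38 and shares no exonic bases with another annotated gene. Its level was 59.6, 59.4 and 57.5 FPKM in control, against 43.7, 40.9 and 39.97 FPKM in olanzapine. All 3 olanzapine pools lay well below all 3 control pools, and the pools of each group were close together. The log2 fold change was -0.52 ± 0.07 (SE, n = 3 pools per group), or 0.695-fold, with an edgeR adjusted p of 0.0140. Without olanzapine pool 1 it was -0.58, with an adjusted p of 0.00592. With 5 pools the adjusted p was 0.0706 without control pool 1, 0.0753 without control pool 2, 0.0596 without olanzapine pool 2 and 0.0729 without olanzapine pool 3, while the fold change stayed between -0.50 and -0.58.

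The other Rab3 genes did not pass the test. Rab3a, the main Rab3 of central synapses, was at 299.5, 267 and 279 FPKM in control (282 ± 16.2, SD, n = 3) and 337, 309 and 306 FPKM in olanzapine (317 ± 17.3), with a log2 fold change of 0.15 ± 0.09 (0.08 without olanzapine pool 1) and an adjusted p of 0.420. Rab3b was at 26.7 ± 2.60 and 25.5 ± 0.521 FPKM, and Rab3d was near 1 FPKM in both groups. The share of Rab3a within the pair of Rab3a and Rab3c was compared per pool. Of their summed FPKM, Rab3a made up 83.4%, 81.8% and 82.9% in control, and 88.5%, 88.3% and 88.4% in olanzapine. The groups did not overlap and the means differed by 5.70 percentage points (82.7 ± 0.820% against 88.4 ± 0.112%, SD), or by 11.6 points on raw counts, which are not divided by gene length. An exact two-sided permutation test gave p = 0.1, the smallest value that 3 against 3 pools allow, and 0.533 after adjustment over the 8 pairs compared.

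Stx3, a syntaxin known from apical and postsynaptic membrane fusion, was the other called gene. It lies at chr19:11775118-11819403 on the minus strand, with no exonic overlap. Its level was 2.08, 2.22 and 2.10 FPKM in control and 2.98, 2.96 and 2.93 FPKM in olanzapine. The 3 olanzapine pools were almost level with each other and above every control pool. The log2 fold change was 0.45 ± 0.08 (SE), or 1.37-fold, with an adjusted p of 0.0340. The adjusted p lay between 0.0612 and 0.136 when any 1 pool was left out (0.136 without control pool 1, 0.107 without control pool 2, 0.0916 without control pool 3, 0.0612 without olanzapine pool 1, 0.0947 without olanzapine pool 2 and 0.108 without olanzapine pool 3). With all 6 pools the call was also lost by limma on FPKM, with an adjusted p of 0.0776 or 0.0760 for pseudocounts of 1 and 0.1. It was lost as well by edgeR with the pool number as a replicate block, with an adjusted p of 0.108.

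Several related genes came near the threshold without passing it. Stxbp2, a syntaxin binding protein best known outside neurons, was at 3.75, 5.51 and 5.35 FPKM in control and 8.52, 8.61 and 7.20 FPKM in olanzapine, a log2 fold change of 0.71 ± 0.15 with an adjusted p of 0.0569. Stx2, a plasma membrane syntaxin, was at 2.84, 2.68 and 2.83 FPKM in control and 4.26, 4.17 and 3.58 FPKM in olanzapine, a log2 fold change of 0.50 ± 0.11 with an adjusted p of 0.0632. For both genes the 2 groups were fully separate, and DESeq2 called both higher. The Golgi syntaxins Stx5a and Stx16 had values of 0.28 ± 0.08 and 0.20 ± 0.07 on the log2 scale, with adjusted p of 0.122 and 0.187. Stx4a had 0.23 ± 0.08 with an adjusted p of 0.217, but its exons overlap those of another annotated gene and the strand setting of the counting is not given in the sources used here. Among all 17 tested SNAREs outside the neuronal complex, 1 was called, 5 had an unadjusted p under 0.05, all higher (Stx2, Stx3, Stx4a, Stx5a and Stx16), and the median log2 fold change was 0.06. Over all genes tested, 17.6% had an unadjusted p under 0.05 and 9.19% were higher. The endosomal syntaxins Stx7 and Stx12 were the most abundant of this group and differed least, with 47.0 ± 1.24 and 46.9 ± 1.31 FPKM for Stx7 and 48.8 ± 1.20 and 48.7 ± 1.89 FPKM for Stx12 in control and olanzapine. Stx6, Stx8, Stx17 and Stx18 had log2 fold changes from -0.04 to 0.10, and Vamp3 and Vamp4, synaptobrevins of recycling and Golgi vesicles, had 0.06 ± 0.11 and -0.07 ± 0.07. Stx11, a syntaxin of immune cells, had 18, 15 and 11 counts in control and 13, 10 and 7 counts in olanzapine, with overlapping groups and a log2 fold change of -0.52 ± 0.49. Vamp5 and Vamp9 were near or below 1 FPKM, with standard errors of 0.33 and 0.49 on the log2 scale.

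Other values moved with the diet groups beside Rab3c and Stx3. Of 19 hepatocyte markers, 19 rose in olanzapine, with summed levels of 12.5 to 18.9 FPKM in control and 196 to 256 FPKM in olanzapine. Ttr (transthyretin) was left out of this list and counted with the choroid plexus markers. Its groups overlapped, with a log2 fold change of -0.82 ± 1.68. Albumin (Alb) was at 3.30 to 6.18 FPKM in control and 63.7 to 84.2 FPKM in olanzapine. No hepatocyte marker was at 0 in any pool, but some were near 0 in control, such as Hnf4a at 0.0053 to 0.0054 FPKM. Of 10 nuclear long non-coding RNAs, 7 rose, with summed levels of 354 to 423 FPKM in control and 706 to 801 FPKM in olanzapine. In the lists for striatum, medial septum, astrocytes, oligodendrocytes, microglia, endothelium, choroid plexus and blood, edgeR called 0 markers with all 6 pools, and DESeq2 called 1 each for striatum, astrocytes and endothelium. An unadjusted edgeR p under 0.05 was found for 1 striatal, 4 astrocyte, 4 microglial and 2 endothelial markers and for 0 in the other 4 lists. By edgeR without olanzapine pool 1, 6 of 10 endothelial markers and 1 astrocyte marker fell and 1 striatal and 1 microglial marker rose. At an unadjusted p under 0.05 there were then 9 of 10 striatal markers (median log2 fold change 0.55) and 10 of 10 endothelial markers (-0.78). The lateral septum markers had a median log2 fold change of -0.38, and of -0.25 without olanzapine pool 1. Of these 12 markers, 2 lay above 0 and 3 had every olanzapine pool below every control pool. The part of all these lists in the Rab3c and Stx3 differences was not tested. In bulk tissue, fewer cells of a type and less RNA per cell cannot be told apart.

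**Figure D3:**
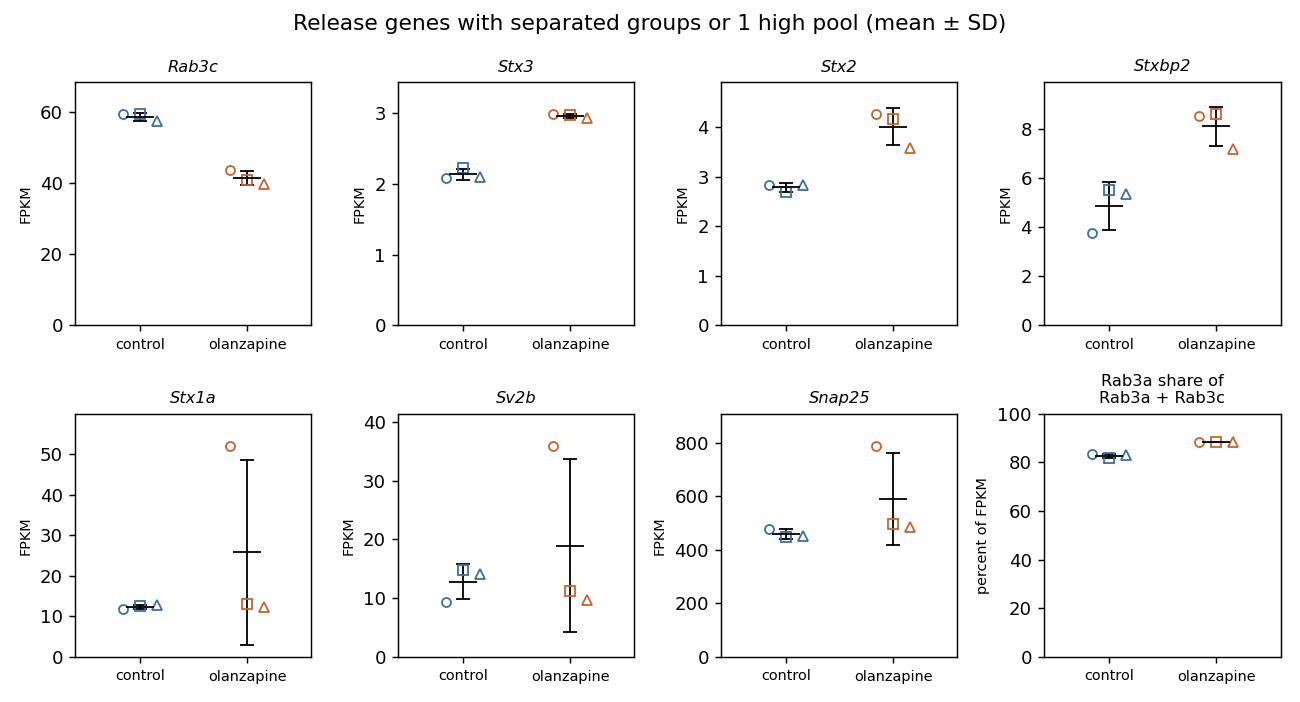
Values per pool (open symbols) with the group mean and SD (black bars) for 7 release genes in FPKM and for the share of Rab3a in Rab3a plus Rab3c in percent, all axes starting at 0. Rab3c and the Rab3a share separate the diets with narrow spread, and Stx3, Stx2 and Stxbp2 lie higher in olanzapine. Stx1a and Sv2b are high in olanzapine pool 1 only. Snap25 is highest in that pool, and in FPKM its other olanzapine pools also lie just above control.

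The neuronal SNARE genes showed how far 1 pool could carry a group mean. Stx1a, one of the plasma membrane syntaxins of synapses (chr5:135023482-135051100, plus strand), was at 11.9, 12.4 and 12.7 FPKM in control and 52.1, 12.9 and 12.2 FPKM in olanzapine. Olanzapine pool 1 stood at 4.19 times the mean of the other 5 pools, which lay between 11.9 and 12.9 FPKM. The log2 fold change was 1.05 ± 0.53 with an adjusted p of 0.347, and it was -0.02 ± 0.07 without that pool.

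Snap25 was at 479, 446 and 451 FPKM in control and 790.2, 495 and 487 FPKM in olanzapine. The highest pool was again olanzapine pool 1, at 1.68 times the others. Its log2 fold change was 0.35 ± 0.19 (adjusted p = 0.396) and 0.06 without that pool. Vamp2, the main synaptobrevin of forebrain, was at 432, 414 and 403 FPKM in control and 476, 441 and 437 FPKM in olanzapine, with a log2 fold change of 0.09 ± 0.08, and 0.04 without that pool. Vamp1 was at 48.6, 35.7 and 38.7 FPKM in control and 48.7, 41.7 and 40.6 FPKM in olanzapine, so the groups overlapped. The share of Vamp1 in the synaptobrevin pair was 8.94 ± 1.09% in control and 8.81 ± 0.424% in olanzapine (exact permutation p = 0.8).

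The proteins that guide SNARE assembly had overlapping groups, apart from Stxbp2. Stxbp4 had the next smallest p among the syntaxin binding genes after Stxbp2, with a log2 fold change of -0.38 ± 0.13 and an adjusted p of 0.191. The tomosyns Stxbp5 and Stxbp5l, which restrain SNARE assembly, had values of -0.04 ± 0.16 and 0.03 ± 0.14 on the log2 scale, and Stxbp3 and Stxbp6 had -0.03 ± 0.15 and 0.14 ± 0.13. Without olanzapine pool 1 these 4 genes were at -0.24, -0.14, 0.04 and -0.00. Cplx1 was at 224, 198 and 190.1 FPKM in control and 268, 223 and 212 FPKM in olanzapine, and Cplx2 was at 159, 172 and 141 FPKM in control and 179, 160 and 163 FPKM in olanzapine. Neither complexin separated the groups, with log2 fold changes of 0.18 ± 0.12 and 0.07 ± 0.10, or 0.05 and -0.00 without olanzapine pool 1. Cplx3 was far lower, at 0.642 to 0.941 FPKM in control and 2.94, 0.842 and 0.541 FPKM in olanzapine. Olanzapine pool 1 was at 3.98 times the others for Cplx3, and its log2 fold change of 0.89 ± 0.58 became -0.20 without that pool.

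None of the 16 tested synaptotagmins was called by edgeR or DESeq2, beside 2.32% and 5.73% of all genes. At an unadjusted edgeR p under 0.05 there was 1 of 16 (Syt10), beside 17.6% of all genes. The median log2 fold change of the 16 was -0.01, with 8 above 0. Syt1, the fast calcium sensor of forebrain, was at 224, 203 and 177 FPKM in control and 277, 171 and 176 FPKM in olanzapine. Olanzapine pool 1 was the highest and olanzapine pool 2 the lowest of all 6, so the groups overlapped fully (log2 fold change 0.03 ± 0.20, and -0.25 without olanzapine pool 1). Syt2, the fast sensor of hindbrain, was at 6.20, 4.67 and 3.83 FPKM in control and 4.995, 4.72 and 4 FPKM in olanzapine. Syt10, linked to growth factor release, was at 4.10, 5.51 and 4.88 FPKM in control and 2.43, 3.80 and 4.08 FPKM in olanzapine. Every olanzapine pool lay below every control pool, though only just for olanzapine pool 3, and olanzapine pool 1 was by far the lowest. The log2 fold change was -0.52 ± 0.18 with an adjusted p of 0.198, and -0.33 without olanzapine pool 1. Syt4, which does not bind calcium as Syt1 does, had -0.13 ± 0.07 with an adjusted p of 0.419. The most abundant synaptotagmins after Syt1 were Syt11, with 139 ± 3.25 FPKM in control and 128 ± 7.71 FPKM in olanzapine (log2 fold change -0.14 ± 0.09), and Syt5, with 96.6 ± 3.31 and 103 ± 3.40 FPKM (0.06 ± 0.07). Syt7, the sensor of slow and asynchronous release, had 0.03 ± 0.13, and -0.13 without olanzapine pool 1. Syt3, Syt6, Syt9, Syt12, Syt13, Syt14, Syt16 and Syt17 had fitted values between -0.21 (Syt9) and 0.26 (Syt16 and Syt17), and the last pair was highest in olanzapine pool 1, at 14.9 FPKM for Syt16 against 8.62 to 9.80 FPKM in the others and 5.14 FPKM for Syt17 against 2.02 to 3.02 FPKM. Without that pool Syt16 was at -0.01 and Syt17 at -0.19 on the log2 scale. Syt15 had the lowest fitted value, -0.66 ± 0.69 (adjusted p = 0.672), from 14, 28 and 34 counts in control and 19, 3 and 25 counts in olanzapine.

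At the active zone, 0 of 8 genes were called by edgeR or DESeq2, beside 2.32% and 5.73% of all genes. An unadjusted edgeR p under 0.05 was found for 0 of 8, beside 17.6%, and 4 of 8 lay above 0, beside 50.7%. Unc13a, the main Munc13 of forebrain synapses, was at 29.9, 28.6 and 23.6 FPKM in control and 39.1, 27.2 and 29.7 FPKM in olanzapine (log2 fold change 0.21 ± 0.16, and 0.02 without olanzapine pool 1). Rims1 was at 10.8, 10.1 and 9.61 FPKM in control and 16.1, 8.41 and 9.42 FPKM in olanzapine. Its olanzapine pools thus held both the highest and the 2 lowest of the 6 values, and the log2 fold change of 0.13 ± 0.23 was -0.23 without olanzapine pool 1. Rims2 had -0.13 ± 0.08, Rims3 -0.11 ± 0.12 and Rims4 0.10 ± 0.18 on the log2 scale, and without olanzapine pool 1 they were at -0.17, -0.24 and -0.17. Unc13c, the Munc13 known from cerebellum, was at 11.2, 13.4 and 10.2 FPKM in control and 7.26, 11.6 and 15.9 FPKM in olanzapine, with the lowest and the highest pool both in olanzapine. Unc13d, the Munc13-4 of immune cells, was below 1 FPKM in every pool and had -0.51 ± 0.28, and -0.32 without olanzapine pool 1. Unc13b was at 1.94 FPKM in olanzapine pool 1 against 0.692 to 1.03 FPKM in the others.

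Among the 11 vesicle proteins, Rab3c alone was called, beside 2.32% of all genes, of which 0.493% were lower. Syp, the standard marker of synaptic vesicles, was at 436, 383 and 388 FPKM in control and 499, 410.0 and 421 FPKM in olanzapine (log2 fold change 0.12 ± 0.11, and 0.01 without olanzapine pool 1). Syn1 was at 124, 108 and 102 FPKM in control and 172, 126 and 119 FPKM in olanzapine, and its log2 fold change of 0.30 ± 0.16 was 0.10 without olanzapine pool 1. Syn2 was at 62.1, 65.2 and 59.9 FPKM in control and 77.4, 64.0 and 59.4 FPKM in olanzapine. Syn3 was below 1 FPKM in every pool at the implied length of 72060 bases, the longest among these genes, and had -0.12 ± 0.09. The groups overlapped for each of these genes. The SV2 genes ran in different directions in olanzapine pool 1. Sv2b was at 9.35, 14.9 and 14.1 FPKM in control and 36.0, 11.2 and 9.71 FPKM in olanzapine, so that pool was at 3.04 times the others, and the log2 fold change was 0.56 ± 0.48 with the pool and -0.33 without it. Sv2a was at 129, 109 and 107 FPKM in control and 118, 101 and 101 FPKM in olanzapine, and Sv2c was lowest of all 6 in olanzapine pool 1, at 9.85 FPKM against 12.4 to 15.8 FPKM.

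Seen over all 67 tested genes, olanzapine pool 1 was the highest pool for 35 of them (52.2%), against 22.8% of all genes. Each of the other 5 pools was the highest for 4 to 12 of the 67. The ratio of olanzapine pool 1 to the mean of the other 5 was largest for Stx1a, Cplx3 and Sv2b, as given above, followed by Unc13b with 2.23, Syt17 with 1.91, Snap25 with 1.68, Rims1 with 1.66 and Syt16 with 1.59. Without olanzapine pool 1, 1 of 67 release genes was called (Rab3c, lower), against 2.87% of all genes, 1.11% lower and 1.76% higher. At an unadjusted p under 0.05 there were then 12 of 67 (17.9%), 5 higher and 7 lower, against 18.8% of all genes, 8.71% higher and 10.1% lower. The cortical markers named above were highest in the same pool, and their part in these values was not tested.

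**Figure D4:**
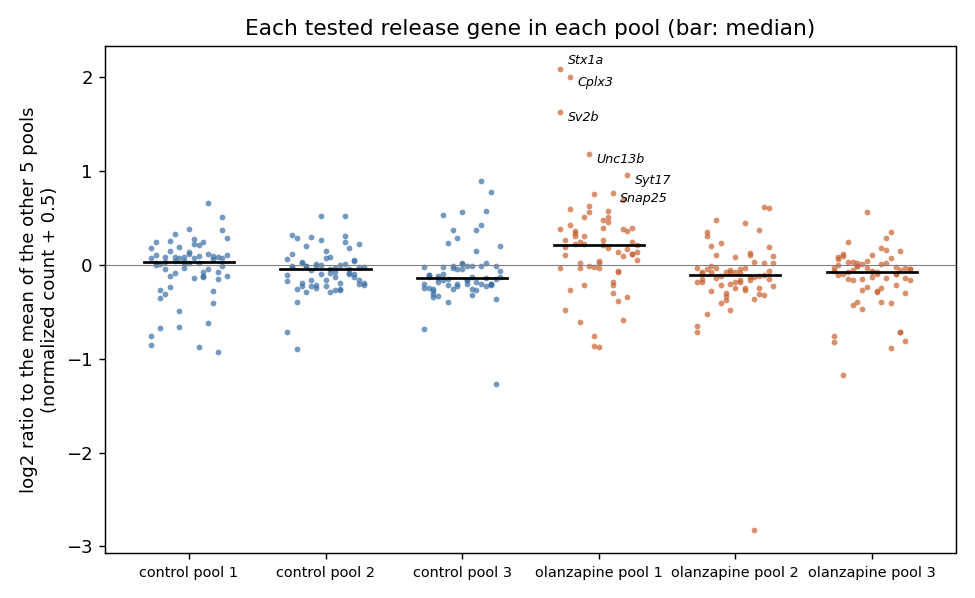
For each pool, the log2 ratio of every tested release gene to its mean in the other 5 pools (TMM-normalized count with 0.5 added; 67 points per pool, black bar the median). The points of olanzapine pool 1 reach highest, with Stx1a, Cplx3, Sv2b and Unc13b at the top, and 35 of the 67 genes had their highest value in that pool.

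A different pool order was seen for Vamp8, a SNARE of endosomes and secretory epithelia. Its level was 11.1, 20.3 and 30.5 FPKM in control and 16.1, 29.0 and 13.0 FPKM in olanzapine. The spread within each group was larger than the difference between them (log2 fold change -0.12 ± 0.38). The 10 choroid plexus markers, summed, ran at 47.5, 1899 and 5380 FPKM in control and 806, 3466 and 30.5 FPKM in olanzapine, with the same pools high. The part of choroid plexus tissue in the Vamp8 values was not tested.

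The wider pathway was read from 86 listed genes outside the families above, of which 85 were tested: other release factors, vesicle endocytosis, and vesicular transporters with presynaptic calcium channels. By the edgeR test 0 rose and 0 fell, with a smallest adjusted p of 0.116, while 12 of 85 (14.1%) had an unadjusted p under 0.05, 5 higher and 7 lower, against 17.6% of all genes, 9.19% higher and 8.4% lower. DESeq2 called 2 of 84, Otof higher and Cacna2d2 lower, beside 5.73% of all genes. Otof, the otoferlin calcium sensor of hair cells, was at 1.76, 2.46 and 1.46 FPKM in control and 3.62, 3.38 and 2.52 FPKM in olanzapine (log2 fold change 0.72 ± 0.21, edgeR adjusted p = 0.133). Cacna2d2, a calcium channel subunit, was at 53.4, 44.5 and 40.7 FPKM in control and 29.99, 35.2 and 37.9 FPKM in olanzapine (-0.45 ± 0.12, edgeR adjusted p = 0.116). Both genes separated the groups.

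Within the release factors, the largest values after Otof were those of Doc2a (0.40 ± 0.31) and Rimbp2 (0.38 ± 0.18) on the log2 scale. Both were highest in olanzapine pool 1, and without it they were at -0.13 and 0.12. In the endocytosis list the largest were Dnm3, a dynamin, with -0.31 ± 0.10, the scaffold Itsn1 with -0.24 ± 0.07 and Bin1 with 0.23 ± 0.08, with adjusted p of 0.164, 0.138 and 0.180. For these 3 endocytosis genes the groups did not overlap. Among the transporters, Slc17a7 had the largest value (2.48 ± 1.33), which was -1.38 without olanzapine pool 1. Slc17a6, the glutamate transporter of subcortical neurons, was at 18.3, 19.4 and 24.9 FPKM in control and 7.35, 17.02 and 11.5 FPKM in olanzapine, a log2 fold change of -0.83 ± 0.26 with an adjusted p of 0.151. Slc18a1, the peripheral monoamine transporter, was below 0.1 FPKM in every pool and had -0.90 ± 0.87.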

How the data were processed

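RNA from pooled lateral septum was sequenced by paired-end RNA-seq in 6 libraries, with groups and pool numbers taken from the labels. The authors trimmed reads with fastp, aligned them with HISAT2 to mm10 (build from the submitters' processing notes) and counted them per gene with HTSeq; versions, strand setting and the handling of multi-mapping reads are not given in the sources used here. The deposited raw counts were tested. The authors also deposited FPKM, which here equals the count divided by a whole-number gene length and the library total; FPKM served for levels and shares.

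Counts were scaled by TMM and fitted with edgeR 4.0.16 (R 4.3.3) on group alone, after filterByExpr (minimum count 10, minimum total 15); p-values come from the quasi-likelihood F test, Benjamini-Hochberg adjusted over all genes. The standard error is the log2 fold change divided by the square root of F. DESeq2 1.42.0 and limma 3.58.1 on log2(FPKM + 1) or log2(FPKM + 0.1) were alternatives, beside other scalings, filters, length offsets, a replicate block and the leaving out of each pool. Shares within 8 gene pairs were compared by an exact permutation test over 20 splits. The scripts were tested on simulated data. Values in every pool were given for called genes, the 3 largest rises and falls and a list of core machinery genes, where reported; pathway genes were named if called or among the 3 largest changes of their list. Other named genes were chosen after their values were seen. The release genes and all lists were chosen with earlier results of these data known. Positions come from GENCODE M21 on GRCm38, the assembly of mm10. Dose, age and pool size come from the study's methods. Values of some of the tested genes are not reported here. No columns of samples were unused.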

Additional observations from a re-analysis of the deposited data

How the results depend on the processing

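Rab3c kept its direction in every alternative, between -0.58 and -0.47 on the log2 scale, and Stx3 kept its direction too. Release genes called higher numbered 1 in the main analysis, 3 with DESeq2 (Stx2, Stx3, Stxbp2), 2 with no count filter (Stx3, Stxbp2), 0 with limma on log2(FPKM + 1), 0 with limma on log2(FPKM + 0.1), 0 with a replicate block, and 0 to 0 when 1 pool was left out. Genes called lower numbered 1 in each of these and 0 to 1 when 1 pool was left out. DESeq2 called 1 other pathway gene higher and 1 lower, against 0 and 0. Genes whose groups did not overlap numbered 6 higher in olanzapine by normalized count and 10 by FPKM. With 1 pool left out, a choice made after seeing the data, there were 6 to 15 higher (15 without control pool 1) and, against 3, 4 to 12 lower. The lower counts were 12 without olanzapine pool 1, 8 without control pool 3, and 5 without control pool 1, olanzapine pool 2 or olanzapine pool 3. A separation of fewer pools is easier by construction. The share over all genes was counted only without olanzapine pool 1 (19.5% higher and 18.2% lower), so the other counts have no background beside them. The Rab3a share rose by 11.6 points on raw counts, which do not divide by length, against 5.70 on FPKM. The numbers of the pools did not pair them (correlations of same-numbered pools -0.00, 0.06 and -0.25), and with the replicate block Rab3c had an adjusted p of 0.0465 and Stx3 of 0.108, with 140 genes called in all, against 401 without the block. Small values changed sign: Syt1 was -0.0055 with the replicate block. With 1 pool left out, values ran from -0.017 to 1.39 for Stx1a, -0.20 to 1.29 for Cplx3, -0.037 to 0.22 for Vamp1, -0.25 to 0.17 for Syt1, -0.27 to 0.090 for Syt2, -0.0061 to 0.14 for Cplx2, -0.23 to 0.32 for Rims1 and -0.056 to 0.16 for Syn2; the lowest was without olanzapine pool 1 for all but Syt2 and Cplx2. None of these genes was called, and the cause was not tested. The median standard error of 0.13 limits the size of change that 3 pools per group can show.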
